A study of Rattus norvegicus with 6 samples.

Results

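The enzymes described are the 9 that carry the mevalonate and squalene pathway from 3-hydroxy-3-methylglutaryl-CoA to lanosterol, taken by gene symbol in the order of the pathway. Of the 9, 8 were matched to a named probe set, among 15037 named genes measured, and each of the 8 had 1 probe set. Hmgcs1, the synthase that opens the series, matched no named probe set and was not analysed here. The study used primary hepatocytes, the parenchymal cells of the liver, isolated from 8-week-old male Sprague-Dawley rats and plated on collagen in serum-containing medium. 3 arrays came from cells left untreated (Control) and 3 from cells given 50 µM trimethylamine N-oxide (TMAO) for 30 h, and no vehicle is named for the untreated cells. TMAO is the oxidised form of trimethylamine, a product of gut microbes that break down dietary choline, and the oxidation takes place mainly in the liver. Both groups were cultured cells of 1 strain and sex, and the labels call the 3 samples of each group biological repeats without saying whether they came from separate animals. The p-values thus cover the spread among these 6 arrays, which may be technical.

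The mevalonate pathway builds isopentenyl diphosphate, a branched carbon unit, from acetyl-CoA. Such units are joined into farnesyl diphosphate, which either enters sterol synthesis through squalene and lanosterol or serves non-sterol products such as dolichol, ubiquinone and prenylated proteins. In the liver, a main site of cholesterol synthesis, transcription of these enzymes is driven by the sterol-regulated factor SREBP-2, which is held in the endoplasmic reticulum (ER) when sterols are plentiful.

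6 of the 8 measured enzymes had a higher mean log2 signal under TMAO than in Control, and 2, Mvk and Lss, had a lower one. The differences were small, from -0.10 for Lss and Mvk to 0.34 for Mvd on the log2 scale, which is 0.931-fold to 1.27-fold, and 0 of the 8 passed an adjusted p of 0.05 in the limma fit across all 15037 genes, where 0.0266% of genes (4) passed in either direction, and 0 to 2 with 1 array left out. The adjusted p-values of the 8 ran from 0.893 to 0.990. 2 of the 8, Mvd and Fdps, had an unadjusted limma p under 0.05 in the higher direction, against 3.01% of all genes, and 0 had one in the lower direction. The same 2 were the enzymes whose groups did not overlap, both higher under TMAO, against 5.51% of all genes higher without overlap and 5.33% lower without overlap. The median difference of the 8 was 0.20 (0.13 when arrays were weighted by their quality), beside a median of -0.0035 over all genes, of which 49% had a higher mean under TMAO. The 8 enzymes share the same 6 arrays, so their count is not one of independent observations.

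The upstream sequences of 4 of the enzymes are shown to set the pair whose groups did not overlap beside the pair with lower means under TMAO. They are the 250 bases before the annotated gene start in RefSeq's rat assembly GRCr8, read 5′ to 3′ on the strand of the gene, which is the minus strand for all 4. Capitals mark 2 motifs searched on both strands, the NF-Y box and the Sp1 box. The first is spelled CCAAT and reads ATTGG when it lies on the opposite strand. The second is spelled GGGCGG and reads CCGCCC when it lies on the opposite strand. NF-Y and Sp1 are transcription factors that act beside SREBP on many sterol-responsive promoters. The sequences lie at chr19:67414975-67415224 for Mvd, chr2:176804817-176805066 for Fdps, chr12:47819504-47819753 for Mvk and chr20:12118231-12118480 for Lss.
Mvd: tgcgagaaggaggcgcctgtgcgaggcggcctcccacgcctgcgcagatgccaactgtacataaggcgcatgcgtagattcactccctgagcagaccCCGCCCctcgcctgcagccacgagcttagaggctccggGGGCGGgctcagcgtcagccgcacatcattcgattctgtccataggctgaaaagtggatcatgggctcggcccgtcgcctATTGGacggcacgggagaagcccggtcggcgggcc
Fdps: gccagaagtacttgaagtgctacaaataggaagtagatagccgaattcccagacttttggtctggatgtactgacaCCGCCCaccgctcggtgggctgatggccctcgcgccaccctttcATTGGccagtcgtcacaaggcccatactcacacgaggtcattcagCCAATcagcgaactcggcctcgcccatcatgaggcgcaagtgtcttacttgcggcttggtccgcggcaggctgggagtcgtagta
Mvk: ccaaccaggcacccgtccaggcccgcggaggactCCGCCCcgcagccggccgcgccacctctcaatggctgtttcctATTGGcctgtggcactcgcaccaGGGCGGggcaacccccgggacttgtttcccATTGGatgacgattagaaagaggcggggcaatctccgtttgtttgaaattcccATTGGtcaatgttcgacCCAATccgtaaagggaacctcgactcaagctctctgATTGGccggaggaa
Lss: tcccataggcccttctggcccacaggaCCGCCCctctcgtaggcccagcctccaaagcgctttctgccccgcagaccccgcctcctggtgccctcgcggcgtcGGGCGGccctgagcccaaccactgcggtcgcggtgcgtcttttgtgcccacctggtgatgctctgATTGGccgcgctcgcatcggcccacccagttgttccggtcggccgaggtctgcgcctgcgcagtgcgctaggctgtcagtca

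All 4 windows hold an NF-Y box. Mvd has 1, at positions -35 to -31 counted from the gene start, Lss has 1, at -82 to -78, and Fdps has 2, at -130 to -126 and -85 to -81. Mvk has 5. Whether the number of boxes bears on the differences was not tested. Idi1, the only other measured enzyme with an entry in the promoter table, has 2. So 5 of 5 measured enzymes with an entry hold this box, against 35.2% of the 12435 measured genes with a promoter of the same length. The Sp1 box was found in 4 of these 5, Idi1 being the exception, against 47.0% of the measured genes. A core of the sterol regulatory element, TCACNCCAC, was in 0 of the 5 and in 0.973% of the measured genes, and a core of the amino acid response element bound by ATF4, TGATGNAA, was in 0 of the 5 and in 2.65%. The 4 motifs can overlap one another. A match describes letters in this window and is no shown binding site, and a motif not found here may lie outside the window or be spelled otherwise.

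The 3 steps from mevalonate to isopentenyl diphosphate differed in sign. Mvk, the kinase that phosphorylates mevalonate, had log2 signals of 6.72, 6.82 and 7.03 in Control and of 6.90, 6.78 and 6.60 under TMAO. The groups overlapped throughout, and the highest and the lowest of the 6 values were both on replicate 3 of a group. The difference was -0.10 ± 0.13 (TMAO minus Control ± SE, n = 3 per group), with an adjusted p of 0.990 by limma. Pmvk, the next kinase, had 6.13, 6.55 and 6.54 in Control and 6.55, 6.58 and 6.64 under TMAO. Control replicate 1 lay 0.41 below the next array, the other 5 spanned 0.10, and the highest Control value was level with the lowest TMAO value. The difference of 0.19 ± 0.14 became 0.05 without Control replicate 1.

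Mvd, the decarboxylase that releases isopentenyl diphosphate, had the largest difference of the 8. Its log2 signals were 5.30, 5.16 and 5.39 in Control and 5.76, 5.43 and 5.67 under TMAO. All 3 TMAO arrays lay above all 3 Control arrays, with a gap of 0.05 between the closest values. The means were 5.28 ± 0.12 and 5.62 ± 0.17 (SD, n = 3), a difference of 0.34 ± 0.13 (SE), or 1.27-fold with a 95% interval of 1.04 to 1.55. Its unadjusted limma p was 0.0256 and its adjusted p 0.893. Mvd also had the weakest signal of the 8 against background, 1.33 log2 units above the median of the negative control probes in Control and 1.68 under TMAO.

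The next enzymes join the carbon units. Idi1, the isomerase that makes the reactive partner dimethylallyl diphosphate, had log2 signals of 7.47, 7.28 and 7.20 in Control and of 7.46, 7.31 and 7.74 under TMAO. The groups overlapped, and TMAO replicate 3 was the only TMAO array above every Control array. The difference of 0.18 ± 0.14 became 0.07 without that array and 0.28 without TMAO replicate 2. Idi2, a second isomerase gene with its own probe set, had a difference of 0.17 ± 0.12, which became 0.09 without TMAO replicate 3. How far the probe sets of these related genes share transcripts was not tested.

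Fdps, the synthase that makes farnesyl diphosphate, had the other pair of groups without overlap. Its log2 signals were 8.62, 8.35 and 8.51 in Control and 8.81, 8.73 and 8.81 under TMAO. The 3 TMAO arrays lay close together, 0.11 above the highest Control array. The means were 8.49 ± 0.14 and 8.79 ± 0.05 (SD, n = 3), a difference of 0.29 ± 0.12 (SE), or 1.23-fold with a 95% interval of 1.02 to 1.47. Its unadjusted limma p was 0.0313 and its adjusted p 0.909. Leaving out any 1 array left the difference between 0.22 and 0.36, and that of Mvd between 0.27 and 0.44.

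**Figure D1:**
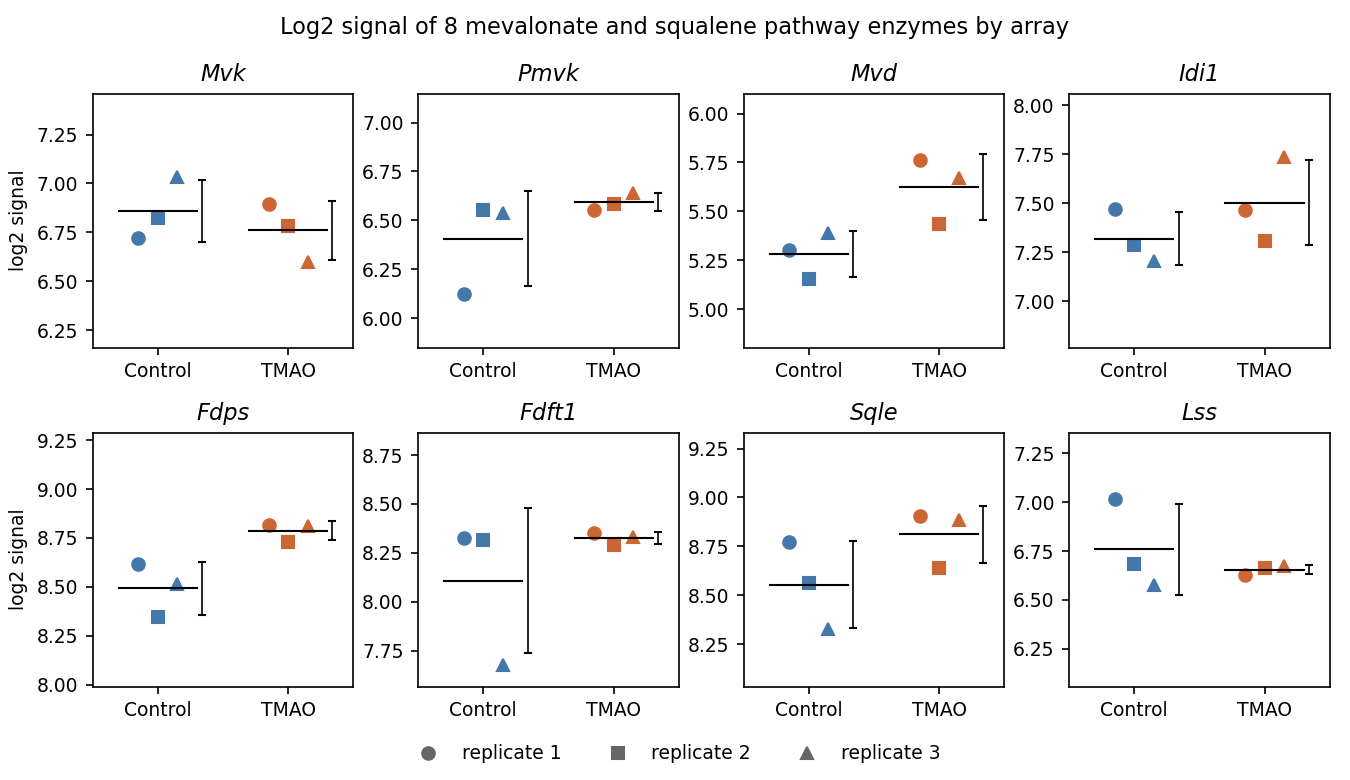
Log2 signal (vertical axes, each spanning 1.3 log2 units) of the 8 measured enzymes in the order of the pathway, for 3 Control and 3 TMAO arrays. Points are arrays, shaped by replicate number, horizontal lines are group means and bars are ± 1 SD. The groups stand apart for Mvd and Fdps and overlap for the other 6.

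The squalene steps differed among themselves in how much the Control arrays varied. Fdft1, squalene synthase, which commits farnesyl diphosphate to sterols, had log2 signals of 8.32, 8.32 and 7.68 in Control and of 8.35, 8.29 and 8.33 under TMAO. 5 of the 6 arrays were nearly equal, and Control replicate 3 was 0.61 below the next lowest. The difference of 0.22 ± 0.17 was 0.0034 without Control replicate 3, so the higher TMAO mean rested on that array. Sqle, squalene epoxidase, an oxygen-requiring and tightly regulated step, had 8.77, 8.56 and 8.33 in Control and 8.91, 8.64 and 8.89 under TMAO. 2 TMAO arrays lay above all of Control and the other lay within its range. The difference was 0.26 ± 0.14, with an adjusted p of 0.958 by limma, and it was 0.14 without Control replicate 3.

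Lss, which closes oxidosqualene into the sterol ring system of lanosterol, had log2 signals of 7.02, 6.68 and 6.57 in Control and of 6.63, 6.66 and 6.67 under TMAO. The TMAO values lay inside the Control range, and Control replicate 1 was 0.34 above the next array. The difference of -0.10 ± 0.13 turned to 0.03 without that array. Mvk kept a lower mean under TMAO whichever array was left out, with a difference between -0.17 (without Control replicate 1) and -0.01 (without Control replicate 3).

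The 95% intervals of the differences bound what these 6 arrays could show. 6 of the 8 intervals spanned 0, and those of Mvd and Fdps lay above it without adjustment for the number of genes tested. An increase of 1.5-fold lay inside the interval of 2 enzymes, Mvd (upper bound 1.55-fold) and Fdft1 (1.53-fold), and the upper bounds of Sqle and Fdps were 1.497-fold and 1.47-fold. A decrease to the same extent lay outside all 8 intervals, and the lowest bounds were 0.754-fold for Lss and 0.760-fold for Mvk.

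**Figure D2:**
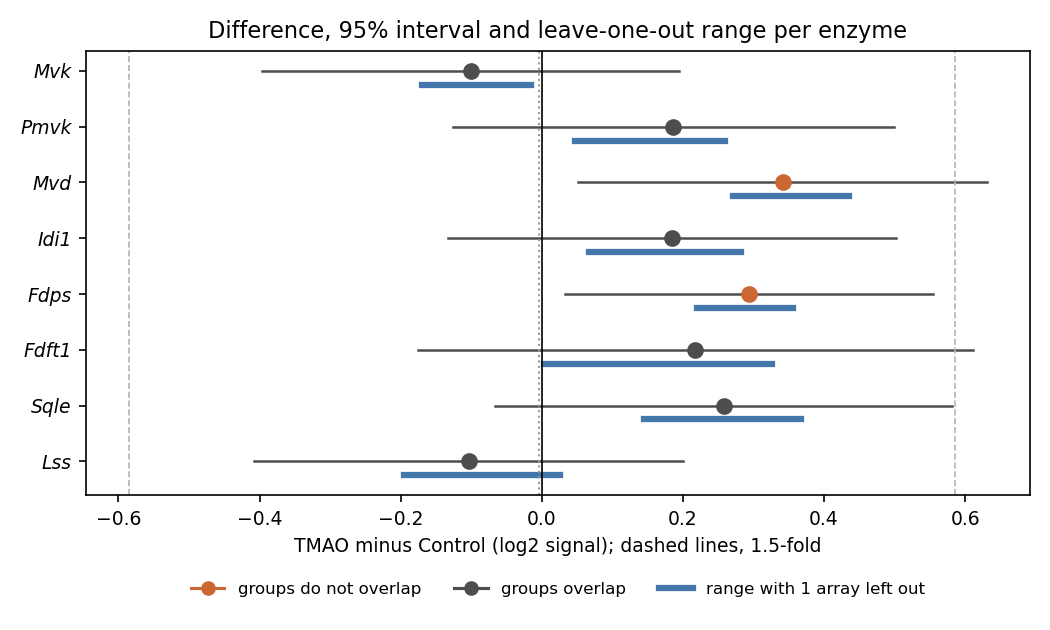
TMAO minus Control difference in log2 signal (horizontal axis) for each enzyme, with its 95% interval from the limma fit (thin lines) and the range of the difference when 1 array is left out (thick lines). Orange points mark the 2 enzymes whose groups did not overlap, dashed lines mark 1.5-fold, and the dotted line is the median over all genes. The leave-one-out range of Lss crosses 0 and that of Fdft1 reaches 0.0034.

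Array by array, the enzymes did not move as a block. Set against each gene's mean of 6 arrays, the mean deviation of the 8 enzymes was -0.0076, -0.09 and -0.14 on Control replicates 1 to 3, in that order, and 0.12, 0.0024 and 0.12 on TMAO replicates 1 to 3. TMAO replicate 2 was thus close to Control replicate 1, and 3 of the 8 enzymes were above their own mean on TMAO replicate 2, against 7 on TMAO replicate 1 and 6 on TMAO replicate 3. The lowest value of an enzyme fell on Control replicate 3 for 4 of the 8 (Idi1, Fdft1, Sqle and Lss), on Control replicate 2 for Mvd and Fdps, on Control replicate 1 for Pmvk and on TMAO replicate 3 for Mvk. The highest fell on TMAO replicate 1 for 4 enzymes (Mvd, Fdps, Fdft1 and Sqle). Fdps lay closest to the mean profile of the 8, with a root mean square distance of 0.10 over the 6 arrays, and Mvk lay farthest, with 0.21.

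The spread within a group was larger in Control for 6 of the 8 enzymes, Mvd and Idi1 being the exceptions, where 48.9% of all genes had the larger SD in Control. The median SD of the 8 was 0.19 in Control and 0.10 under TMAO, beside 0.15 in each group over all genes. The narrow TMAO values were those of Lss, Fdft1, Pmvk and Fdps, with an SD of 0.02, 0.03, 0.05 and 0.05. Whether the variance differed between the groups was not tested.

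**Figure D3:**
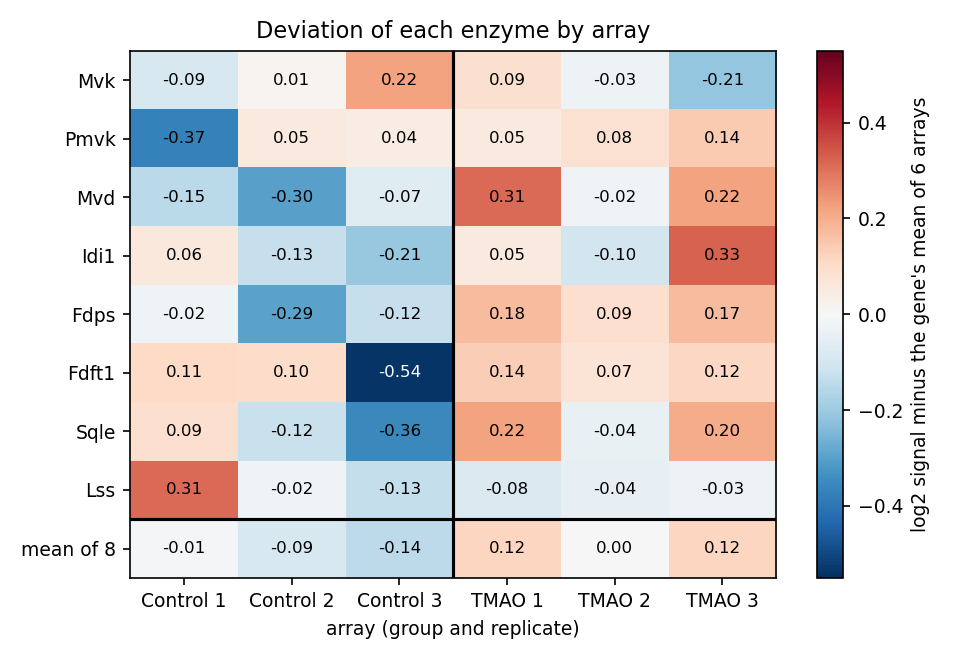
Log2 signal of each enzyme minus its mean over 6 arrays (colour and printed value), with arrays as columns and enzymes as rows in the order of the pathway. The last row is the mean of the 8 enzymes. The lowest cell, -0.54, is Fdft1 on Control replicate 3, and the mean of the 8 is near 0 on TMAO replicate 2.

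The steps on either side were also small and mixed in sign. From the start of the pathway 2 of 3 listed genes were measured. Acat2, the cytosolic thiolase that supplies acetoacetyl-CoA, had a difference of 0.13 ± 0.16, which turned to -0.02 without TMAO replicate 1. Acat1, its mitochondrial relative, had -0.03 ± 0.13, which turned to 0.05 without Control replicate 1 and to 0.04 without TMAO replicate 3. Of 10 genes that carry lanosterol to cholesterol 8 were measured, of which 4 had a higher and 4 a lower mean, and 0 passed the adjusted threshold in either direction. Their median was 0.06, and between 0.02 (without Control replicate 2) and 0.06 with 1 array left out, beside 0.20 for the 8 pathway enzymes. This difference between lists was not tested. Cyp51, which removes a methyl group from lanosterol, had 0.22 ± 0.12, which was 0.13 without Control replicate 3, and Msmo1, the oxidase of the next methyl groups, had 0.20 ± 0.12. Nsdhl, the dehydrogenase that acts with Msmo1, had -0.20 ± 0.11, with an adjusted p of 0.958 by limma. It was lower in all 3 TMAO arrays than in all 3 Control arrays, as were 5.33% of all genes.

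The genes that draw farnesyl diphosphate away from sterols were mixed too. Of 12 listed 11 were measured, 6 with a higher and 5 with a lower mean, with 0 past the adjusted threshold. Their median of 0.05 turned to -0.0020 without Control replicate 1 and was 0.0023 without TMAO replicate 2. Nus1 and Dolk, which both serve the dolichol branch, the first in a subunit of the long-chain prenyl transferase and the second as dolichol kinase, went opposite ways. Nus1 had log2 signals of 8.42, 8.47 and 8.22 in Control and of 8.50, 8.60 and 8.73 under TMAO, a difference of 0.24 ± 0.12. Dolk had 7.28, 7.53 and 7.29 in Control and 7.18, 6.92 and 7.17 under TMAO, a difference of -0.27 ± 0.13. The groups did not overlap for either gene, against 5.51% of all genes higher and 5.33% lower without overlap. The adjusted p-values by limma were 0.955 and 0.938. Both genes are named because their unadjusted p was among the 3 smallest of the 11 measured. Rabggtb, a subunit of the enzyme that attaches geranylgeranyl groups to Rab proteins, had 0.18 ± 0.13 with overlapping groups, and 0.11 without TMAO replicate 3 and 0.12 without Control replicate 3.

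Of 12 genes of SREBP control and sterol uptake 10 were measured, 9 with a higher mean and 0 past the adjusted threshold. Of all genes 49% had a higher mean. The 9 include the isomerase gene Idi2, and Npc1l1, which lay below the negative controls in both groups and differed by 0.05. The median of the 10 was 0.07, and 0.04 with 7 higher without TMAO replicate 3. Insig1, itself an SREBP target that retains the SREBP complex in the ER, had log2 signals of 9.43, 9.15 and 9.20 in Control and of 9.89, 9.53 and 10.57 under TMAO. The groups did not overlap, as for 5.51% of all genes in the higher direction, and TMAO replicate 3 was the highest. The difference of 0.73 ± 0.23, with an adjusted p of 0.829 by limma, was larger than that of any of the 8 enzymes, and it was 0.45 without TMAO replicate 3. Mbtps2, a protease that releases active SREBP and ATF6, had 0.29 ± 0.15, and 0.14 without TMAO replicate 3. Srebf2, the gene of SREBP-2, had -0.01 ± 0.13, and is named here after its value was seen because it encodes the regulator of the pathway.

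**Figure D4:**
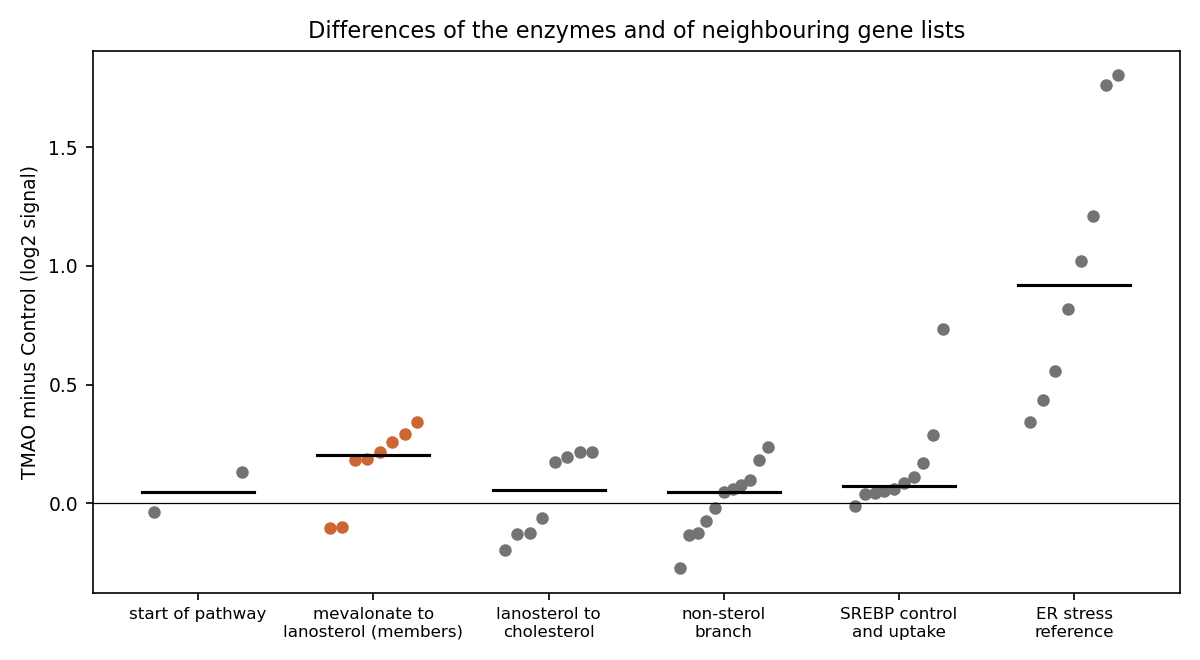
TMAO minus Control difference in log2 signal (vertical axis) for each measured gene of the pathway and of 5 other lists. Points are genes and black lines are list medians, which are 0.20 for the 8 pathway enzymes, 0.06 for the lanosterol to cholesterol genes, 0.05 for the non-sterol branch, which turns to -0.0020 without Control replicate 1, and 0.92 for the ER stress reference.

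ER stress genes differed more. The 8 genes of an ER stress reference list all had higher means, with a median difference of 0.92. Their groups did not overlap, against 5.51% of all genes higher without overlap. 2 of them passed the adjusted threshold by limma with all 6 arrays, and 0 with any 1 array left out. This list was drawn up with earlier results of these data known, so its direction is not independent evidence. Its mean deviation was 0.41 on TMAO replicate 1, 0.31 on TMAO replicate 2 and 0.78 on TMAO replicate 3, and between -0.56 and -0.44 on the Control arrays. TMAO replicate 3 was thus the highest array for the ER stress list, whereas the pathway enzymes had the same mean deviation, 0.12, on TMAO replicates 1 and 3.

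The 5 genes outside these lists whose array profile lay closest to the mean profile of the 8 enzymes were Rbm39, Usp25, Rps6kb1, Cluap1 and Acsl4, among genes at or above the 25th percentile of mean signal. Their root mean square distances over the 6 arrays ran from 0.022 for Rbm39 to 0.029 for Acsl4, less than that of any single enzyme from the same mean (0.10 to 0.21). Their differences ran from 0.14 for Usp25 to 0.17 for Rbm39, and 0 of the 5 passed the adjusted threshold by limma. The profile they were chosen by holds the group difference, so these values follow from the choice. The mean of 8 genes is flatter than any of them, and the distance says nothing of shared function.

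Median log2 signals of the 6 arrays lay between 5.53 and 5.61, and pairs of arrays correlated by 0.985 to 0.993 across genes, which are no independent replicates. On the first principal component (30.8% of the variance) TMAO replicate 3 lay farthest out. Hepatocyte markers were high, with albumin (Alb) at mean log2 signals of 11.89 and 11.92, although Cps1, a urea cycle enzyme of hepatocytes, was near background in Control (4.85). Of 9 hepatocyte markers 7 had lower means under TMAO, and their summed signal was 14.21 to 14.33 in Control and 14.15 to 14.24 under TMAO on the log2 scale. Of 9 macrophage markers 7 had lower means, with summed signals of 8.95 to 9.25 and 8.86 to 8.97. Clec4f, Ptprc, Csf1r and C1qb lay near the negative controls in both groups. In both groups 3 of the 9 exceeded the negative controls by 1 log2 unit, among them C1qa (means of 7.62 in Control and 7.49 under TMAO) and Cd68 (7.50 and 7.21). Of 6 endothelial markers 0 exceeded the negative controls by 1 log2 unit in both groups. For 9 stellate cell and fibroblast markers the summed signals were 9.42 to 9.65 and 9.12 to 9.52, with 7 lower under TMAO, and for 5 cholangiocyte markers they were 7.65 to 7.94 and 7.55 to 8.12, with 4 higher. The part of these markers in the enzymes' differences was not tested. In bulk RNA, a lower share of a cell type and less RNA per cell cannot be told apart.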

How the data were processed

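Expression was measured on 6 Affymetrix arrays (Clariom S Rat, per the file headers). The authors deposited log2 signals, 1 for each probe set on each array, and how background, normalization and probe summary were handled was not given in the sources used here. limma is named in the submitters' processing notes, with neither version nor role. Of 24871 rows, 1683 were control probe sets and were dropped. Of the remaining 23188, the platform annotation gave 1 symbol to 15049, several to 0 and none to 8139, and every annotated identifier was in RefSeq's GRCr8 table. For the 10 genes with more than 1 probe set, the one of highest mean was kept, which gave 15037 genes. A second deposited table has 6 columns that no label ties to a sample, and these were not used.

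Groups came from the sample titles. TMAO was compared with Control by limma 3.58.1 in R 4.3.3 (lmFit and eBayes, group as the only term, two-sided), with Benjamini-Hochberg adjustment over all 15037 genes at 0.05. The 95% intervals come from the same moderated fit. No exact permutation test was used, since 3 against 3 arrays cannot give a two-sided p under 0.10. The procedure was tested on simulated data. The enzymes and gene lists were chosen with earlier results of these data known. The text names the 3 genes of smallest unadjusted p in each list around the pathway, only counts and medians for the ER stress list, and the 5 genes of nearest profile from outside the lists. Near background means a group mean within 1 log2 unit of the median of 1153 negative controls, or below it. Alternatives were quantile normalization, median centring, a signal filter, trend and robust estimation, array weights, averaged probe sets per gene, every probe set tested, a replicate block and leaving out each array. With 3 arrays per group, small differences have wide intervals.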

Additional observations from a re-analysis of the deposited data

How the results depend on the processing

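Across 14 alternatives, 0 of 111 differences of the 8 enzymes passed the adjusted threshold by limma, with adjusted p-values of 0.503 to 0.9997, and 1 changed sign. Mvd gave no value with the filter on low signal, which tested 7519 genes. The median difference of the 8 was 0.13 with array weights and 0.14 to 0.29 with 1 array left out, the extremes without Control replicates 3 and 1, against 0.20. Of the 8 enzymes 6 had a higher mean under TMAO in every alternative that tested all 8, except for 7 without Control replicate 1, and with the filter it was 5 of the 7 tested. With 1 array left out, the difference of Lss ran from -0.195 to 0.0264 (without Control replicates 3 and 1), that of Acat2 from -0.0172 to 0.242 (without TMAO replicates 1 and 3) and that of Acat1 from -0.0945 to 0.0482 (without Control replicates 3 and 1). Acat1 was also above 0 without TMAO replicate 3 (0.0422) and with array weights (0.0019). The median of the non-sterol branch ran from -0.0020, without Control replicate 1, to 0.0603 with 1 array left out, and that of the lanosterol to cholesterol genes from 0.02 to 0.06. The cause of these shifts was not tested, beyond the removal of the array itself.

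Of all genes, 4 passed the adjusted threshold, against 9 with the filter on low signal, 30 with trend and robust estimation, 7 with array weights, 0 when every probe set was tested (1146 at an unadjusted p under 0.05) and 0 to 2 with 1 array left out, the 2 without TMAO replicate 1. With an unadjusted p under 0.05 there were 825 genes, 511 with the filter on low signal, and 601 to 877 with 1 array left out. With the replicate number as a block 0 genes passed and 826 had an unadjusted p under 0.05, and the adjusted p of Mvd was 0.859 and that of Fdps 0.884. Between groups, arrays of equal number had deviations from their group means that correlated by 0.13, 0.10 and -0.01. Control replicate 1 correlated best with its own number (-0.12 and -0.01 with TMAO replicates 2 and 3). So did Control replicate 2 (-0.13 and 0.03 with TMAO replicates 1 and 3), but Control replicate 3 did not. The labels do not say whether the numbers mark pairs, and the main fit did not take them as pairs. Of the 8 enzymes Mvd had the signal nearest to the negative controls, 1.33 log2 units above them in Control.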
